A study of Mus musculus with 6 samples.

Results

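The Ly6 genes described here are 9 genes of mouse chromosome 15 that encode, or resemble genes that encode, small surface proteins of the Ly6/uPAR family. They are Ly6c1, Ly6c2, Ly6a, Ly6a2, Ly6e, Ly6d, Ly6g, Ly6i and Ly6k, taken by name, and all 9 were among the 55291 genes of the deposited table. Polyadenylated RNA had been sequenced from tumour-associated macrophages of mouse liver tumours (hepatocellular carcinoma), in 3 libraries labelled TREM2+ and 3 labelled TREM2-. TREM2 is a lipid-sensing receptor of myeloid cells, and the comparison asks how the macrophages labelled TREM2+ differ from those labelled TREM2-. Strain, sex and age of the mice, the tumour model and the way TREM2+ and TREM2- cells were parted are not stated in the labels. The labels leave unsaid whether replicates are separate mice, and p-values here speak only to the spread among these 6 libraries, some of which may be technical.

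Ly6 proteins are short three-fingered domains held by disulphide bonds and tied to the outer leaflet of the membrane by a glycosylphosphatidylinositol (GPI) anchor. Several serve as markers of blood cell types in the mouse: Ly6C, the product of Ly6c1 and Ly6c2, marks classical monocytes at high level, Ly6G marks neutrophils, and Sca-1, the product of Ly6a, marks blood stem cells and rises on many cells under interferon. Monocytes that enter a tissue and become macrophages usually lose surface Ly6C, which is why Ly6C is often read as a sign of recent arrival from blood.

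Across 397.1 kb the genes lie in the order Ly6d, Ly6k, Ly6e, Ly6i, Ly6a, Ly6c1, Ly6c2, Ly6a2 and Ly6g (GENCODE M21 on mm10, chromosome 15, 74762056 to 75159126). GENCODE M21 lists Ly6a2 as I830127L07Rik, a transcribed pseudogene, while RefSeq lists it as a protein-coding gene. The other 8 are protein-coding in GENCODE M21. Near copies matter for reading the values, and their sequences are set out first. Ly6c1 and Ly6c2 had coding sequences of 396 bases each that were 97.7% identical and differed at 9 bases. Of those 9 bases, 6 lay in the first 90 coding bases, shown here 5′ to 3′ because most coding differences between the copies fall there (GENCODE M21, chromosome 15, capitals mark the bases that differ).
Ly6c1: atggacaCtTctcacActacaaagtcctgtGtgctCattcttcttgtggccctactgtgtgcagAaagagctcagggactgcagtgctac
Ly6c2: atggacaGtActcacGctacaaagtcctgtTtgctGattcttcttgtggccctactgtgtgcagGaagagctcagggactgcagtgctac
Of all stretches of 150 bases (the length of 1 read of a pair) in Ly6c2 transcripts, 1.42% also occurred in Ly6c1, and of those of Ly6c1, 2.29% occurred in Ly6c2. No stretch of that length in Ly6a, Ly6a2, Ly6i, Ly6g, Ly6e or Ly6d occurred in any other gene. Of stretches of 50 bases, 32.77% of those of Ly6c1, 18.97% of those of Ly6a, 13.98% of those of Ly6c2, 4.76% of those of Ly6i, 4.73% of those of Ly6a2 and 0.22% of those of Ly6g recurred in another of the 9 genes. None of those of Ly6e, Ly6d or Ly6k did. The labels do not say how reads that match several genes were counted, so Ly6c1 is uncertain beside its far more abundant copy, and the sum of both is given below. Coding identity between Ly6a and Ly6i was 86.4%, and between Ly6c2 and Ly6a 83.6%. The transcript of Ly6a2 matched that of Ly6i at 86.8%, that of Ly6a at 85.5% and that of Ly6c2 at 84.7% of aligned bases. Ly6e, Ly6d and Ly6k stood apart, with coding identities between 50.8% and 58.7% to the other 7 protein-coding members.

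The likeness ran differently in the promoters. The RefSeq promoter table (GRCm38.p6, 250 bases before to 50 after each start) matched 4 of the 9 genes, Ly6c1, Ly6c2, Ly6a2 and Ly6g. The windows of Ly6c2 (chr15:75111922-75112221, minus strand) and Ly6a2 (chr15:75135079-75135378, minus strand) were 98.3% identical over 295 aligned bases. That of Ly6c1 (chr15:75048788-75049087, minus strand), whose coding sequence is the near copy, was 78.2% identical to that of Ly6c2. They are shown 5′ to 3′ since Ly6c2 and Ly6a2 are also the members that passed the test together, both lower in TREM2+. In Ly6c2 the capitals mark bases that have no match in Ly6a2, and in Ly6a2 and Ly6c1 they mark bases that have no match in Ly6c2.
Ly6c2 promoter: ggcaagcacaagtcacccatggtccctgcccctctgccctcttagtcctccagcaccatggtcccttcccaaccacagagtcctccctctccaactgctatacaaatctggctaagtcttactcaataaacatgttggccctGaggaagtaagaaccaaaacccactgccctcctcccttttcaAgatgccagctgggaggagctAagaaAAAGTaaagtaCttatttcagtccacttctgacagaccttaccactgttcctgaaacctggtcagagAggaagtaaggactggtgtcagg
Ly6a2 promoter: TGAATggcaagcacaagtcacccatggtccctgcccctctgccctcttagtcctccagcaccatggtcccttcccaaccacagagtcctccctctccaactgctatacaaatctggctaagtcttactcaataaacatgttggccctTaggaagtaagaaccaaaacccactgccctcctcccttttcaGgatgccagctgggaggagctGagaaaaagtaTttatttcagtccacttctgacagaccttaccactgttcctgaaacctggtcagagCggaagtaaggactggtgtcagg
Ly6c1 promoter: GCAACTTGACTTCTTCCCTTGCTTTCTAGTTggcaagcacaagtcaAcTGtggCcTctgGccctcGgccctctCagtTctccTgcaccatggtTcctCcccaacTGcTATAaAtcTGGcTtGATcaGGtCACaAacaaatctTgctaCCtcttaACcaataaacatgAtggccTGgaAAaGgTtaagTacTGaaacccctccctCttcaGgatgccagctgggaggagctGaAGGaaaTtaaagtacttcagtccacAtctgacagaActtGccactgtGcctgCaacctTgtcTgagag
Counted from 1 at the 5′ end of the Ly6c2 window, the substitutions between Ly6c2 and Ly6a2 were G143T, A185G, A206G, C222T and A278C, besides 5 bases on each side without a partner. The letters GAGGAA, the core of sites of the myeloid factor PU.1, were searched on both strands. Ly6c2 held them at 2 places, which do not overlap, and 2 of the 5 substitutions, G143T and A278C, fell in them. Ly6a2 held none, and 28.3% of 32851 promoters of the same length held at least 1. The window of Ly6c1 held GAGGAA once, as well as TATAAA, which 13.6% of promoters held and Ly6c2 and Ly6a2 did not. Neither the core of interferon-stimulated response elements (GAAA, any 2 bases, GAAA; in 3.4% of promoters) nor TTCNNNGAA, the core of interferon-gamma activated sites (8.3%), was found in any of the 7 windows of these 4 genes, on either strand. A match of letters is a description of these windows and not a binding site.

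The plainest difference was that Ly6c2 and Ly6a2 transcripts were lower in every TREM2+ library than in any TREM2- library, while Ly6a lay higher in every TREM2+ library without passing the test. Levels are given as TPM, each library being rescaled here to a total of 1000000. Differences were tested with limma on log2(TPM + 1) over all genes that passed the filter for low values, with p adjusted by Benjamini-Hochberg and called under 0.05. Of the 9 genes, 8 passed the filter and Ly6k did not. Of those 8, 2 were lower in TREM2+ libraries (Ly6c2 and Ly6a2), 0 were higher, and 6 did not pass. Over all 13788 genes tested, 2.42% were called, 0.37% lower and 2.05% higher. At an unadjusted p under 0.05, Ly6a was higher as well, and voom on recovered reads also called 2 members lower and 0 higher. Over all 13788 genes tested with limma, an unadjusted p under 0.05 was reached by 1027 above and 736 below. Of 13454 genes tested with voom, 448 were called higher and 173 lower. Counts of these kinds in the gene lists below stand beside those numbers. TREM2+ and TREM2- libraries did not overlap for 3 of the 8 genes, Ly6a above and Ly6c2 and Ly6a2 below, where 16.7% of all genes tested did not overlap, 9.07% above and 7.62% below. The median log2 fold change was -0.21 over the 8 members tested and -0.09 over all genes tested. Both lower calls depended on single libraries: 0 members were called lower without TREM2- replicate 1, though 2 were at an unadjusted p under 0.05, and 1 was called without TREM2+ replicate 3. With both libraries numbered 3 left out no gene of the table was called by limma, although an unadjusted p under 0.05 was reached by 636 genes above and 444 below.

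**Figure D1:**
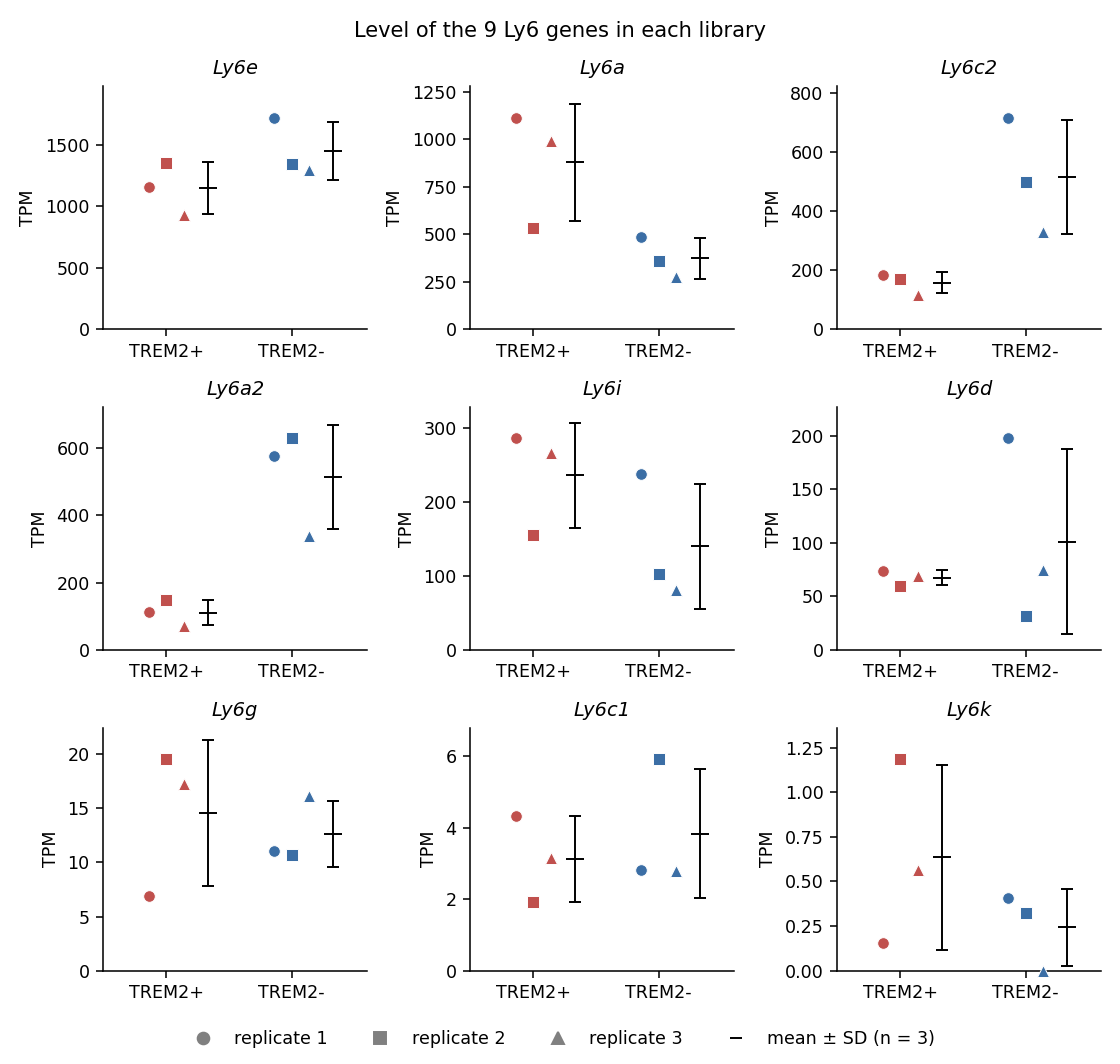
Level of each of the 9 genes in TPM (vertical axis, linear, from 0) in the 3 TREM2+ libraries (red, left) and the 3 TREM2- libraries (blue, right), with the replicates as circles, squares and triangles and the mean ± SD (n = 3) as a black bar. The groups are apart for Ly6c2 and Ly6a2, which lie lower in TREM2+, and for Ly6a, which lies higher, while the other genes overlap.

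Levels per length differed widely among the 9. Of the genes tested, 0.62% had a higher mean TPM over the 6 libraries than Ly6e, 1.29% a higher one than Ly6a, and 2.39% a higher one than Ly6c2. In TREM2+ libraries the order of mean levels was Ly6e, Ly6a, Ly6i, Ly6c2, Ly6a2, Ly6d, Ly6g, Ly6c1 and Ly6k. Libraries of Ly6e and Ly6a overlapped in it, as did those of Ly6i and Ly6c2, of Ly6c2 and Ly6a2, and of Ly6a2 and Ly6d. In TREM2- libraries Ly6c2 and Ly6a2 shared the second place behind Ly6e, at means of 515 TPM each, and Ly6a, Ly6i, Ly6d, Ly6g, Ly6c1 and Ly6k followed. Neighbours in that order did not overlap between Ly6e and Ly6c2, between Ly6a and Ly6i, between Ly6d and Ly6g, or further down. Per-length levels depend on the exon length used, which takes in every annotated exon of a gene: it was 2740 bases for Ly6c2, whose main coding transcript has 822.

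Ly6c2 (ENSMUSG00000022584.14, chromosome 15, 75108158 to 75111970, minus strand) encodes the Ly6C protein of classical monocytes. Its level was 182, 171 and 116 TPM in the TREM2+ libraries, against 716, 499 and 329.5 TPM in the TREM2- libraries (replicates 1, 2 and 3). The highest TREM2+ library stood well below the lowest TREM2- library, and the TREM2- libraries differed among themselves more than the TREM2+ ones. Means were 156 ± 35.6 TPM in TREM2+ and 515 ± 194 TPM in TREM2- (SD, n = 3 each). The log2 fold change was -1.67 ± 0.32 (SE), or 3.19-fold lower in TREM2+, with an adjusted p of 0.0307 in limma. The values rest on 3845, 3332 and 2032 reads in TREM2+ and 17481, 10201 and 5809 in TREM2-. By log2 fold change Ly6c2 came 28th of the 51 genes called lower. The adjusted p was 0.0867 without TREM2+ replicate 3 and 0.0772 without TREM2- replicate 1, with log2 fold changes of -1.47 and -1.40.

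Ly6c1, the copy that in the mouse is known from endothelial cells, was near the low end of detection. It stood at 4.33, 1.92 and 3.16 TPM in TREM2+ and at 2.81, 5.92 and 2.78 TPM in TREM2-, and the groups overlapped. The log2 fold change was -0.21 ± 0.34 (adjusted p = 0.88, limma), and it turned to 0.02 without TREM2+ replicate 2 and to 0.08 without TREM2- replicate 2. Ly6c1 held 1.44%, 0.686% and 1.65% of the reads of both copies in TREM2+ and 0.240%, 0.720% and 0.514% in TREM2-. The 95% Wilson interval was 1.11% to 1.86% in TREM2+ replicate 1 and 0.177% to 0.324% in TREM2- replicate 1, for counting error only. Nearly all Ly6C reads thus carried the name of Ly6c2 in every library. The summed level of both copies was 186, 173 and 119 TPM in TREM2+, against 719, 505 and 332 TPM in TREM2-, without overlap. The sum gave a log2 fold change of -1.65 ± 0.32 (adjusted p = 0.0309, limma), close to that of Ly6c2 alone, and adjusted p values of 0.088 without TREM2+ replicate 3 and 0.0778 without TREM2- replicate 1.

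Ly6a2 (ENSMUSG00000102051.1, chromosome 15, 75131377 to 75135128, minus strand) had the lowest log2 fold change of the 8 tested. Among the 4 members with a promoter window, it had the one most like that of Ly6c2, and a link to its level was not tested. It reached 113, 148 and 72.4 TPM in the TREM2+ libraries, against 576, 629 and 339.5 TPM in the TREM2- libraries. The groups did not overlap, and replicate 3 was the lowest library in each group. Means were 111 ± 37.7 TPM in TREM2+ and 515 ± 154 TPM in TREM2- (SD, n = 3 each). This gave a log2 fold change of -2.21 ± 0.33, or 4.64-fold lower in TREM2+, with an adjusted p of 0.0112 in limma. Reads came to 693, 840 and 371 in TREM2+ and 4099, 3743 and 1743 in TREM2-. Ly6a2 came 13th of the 51 genes called lower, and its adjusted p was 0.0523 without TREM2- replicate 1, at a log2 fold change of -2.11. Of its stretches of 50 bases, 4.85% recurred outside the 9 genes, most of them in the pseudogene Gm5960 of the same region, whose own level was 6.07, 7.26 and 4.22 TPM in TREM2+ and 15.5, 19.8 and 3.45 TPM in TREM2-. The ratio of Ly6a2 to Ly6c2 was 0.619, 0.866 and 0.627 in TREM2+ and 0.805, 1.26 and 1.03 in TREM2-, and the groups overlapped in it.

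Monocyte genes were read beside these 2 genes, since Ly6C is a monocyte marker. Of 18 classical monocyte genes tested, 1 was lower in TREM2+ and 0 were higher, with a median log2 fold change of -0.90. An unadjusted p under 0.05 was reached by 9 below and 0 above, and voom called 8 lower. In 9 of the 18, the TREM2+ libraries all lay below the TREM2- libraries, and in 0 all above. The gene called was Ifitm6, an interferon-induced transmembrane protein gene of monocytes, at 292, 421 and 260.4 TPM in TREM2+ and 679.7, 931 and 694 TPM in TREM2-. Its log2 fold change was -1.26 ± 0.26 (adjusted p = 0.0419, limma), and with single libraries left out it was called in 1 fit of 6, the one without TREM2+ replicate 2. Lyz2, lysozyme of monocytes and macrophages, stood at 29840, 37300 and 28340 TPM in TREM2+ and 66720, 70510 and 55340 TPM in TREM2- (-1.01 ± 0.27, adjusted p = 0.115). Mgst1, a microsomal glutathione transferase, had -0.98 ± 0.27 (adjusted p = 0.125). Of the 18, 5 had log2 fold changes above 0. Thbs1, thrombospondin 1, had 1.34 ± 0.60 (adjusted p = 0.404), and Cd14, a co-receptor for bacterial lipopolysaccharide, had 1.04 ± 0.60 (adjusted p = 0.552). Without TREM2- replicate 2 both were called higher in TREM2+, at 1.99 and 1.76 (adjusted p = 0.0215 each, limma). The log2 fold changes of Ly6c2 and Ly6a2 were below those of all 18. The summed level of the 18 genes was between 35630 and 65190 TPM in TREM2+ and between 81120 and 152700 TPM in TREM2-, and none was at 0 in all 6 libraries. Of 12 patrolling monocyte genes, which mark the monocytes with little Ly6C, 0 were called in either direction, with a median of -0.27 and summed levels between 1880 and 2373 TPM in TREM2+ and between 1588 and 2174 TPM in TREM2-. An unadjusted p under 0.05 was reached by 1 above and 1 below, and voom called 0. Macrophage genes ran the other way: 8 of 14 were higher in TREM2+ and 0 lower (median 1.80), 5 without either TREM2- replicate 1 or TREM2- replicate 3, with summed levels between 24550 and 36750 TPM in TREM2+ and between 6192 and 10600 TPM in TREM2-. C1qc, a chain of complement C1q, reached 2623, 2731 and 2184 TPM in TREM2+ and 291, 377 and 566 TPM in TREM2-. The general macrophage genes Adgre1, which encodes F4/80, and Csf1r, the receptor of macrophage colony-stimulating factor, were present in all 6 libraries and did not pass (log2 fold changes of 0.11 and 0.44). In bulk RNA, fewer cells of a type and less RNA of a gene per cell cannot be told apart, and the part of monocyte content in the levels of Ly6c2 and Ly6a2 was not tested.

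**Figure D2:**
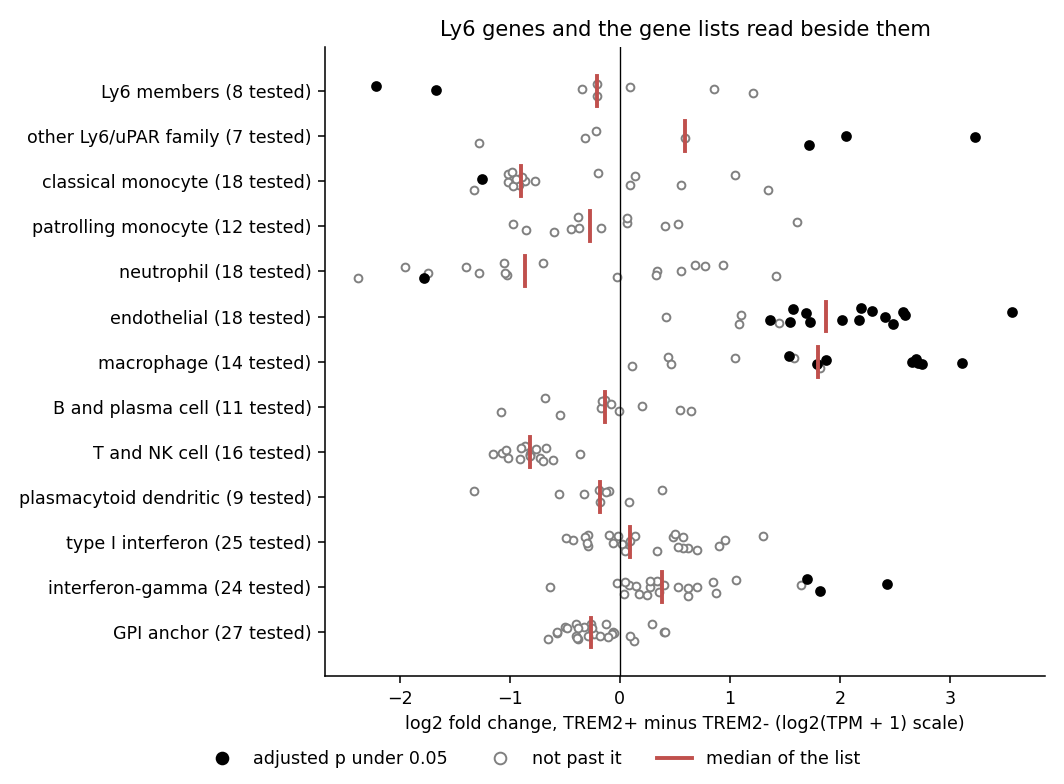
Log2 fold change (TREM2+ minus TREM2-, log2(TPM + 1) scale, horizontal axis) of each tested gene in 13 gene lists, with filled points for genes at an adjusted p under 0.05 in limma and a red bar at the median of each list. Ly6c2 and Ly6a2 are the 2 filled points on the left of the top line. The classical monocyte median lies at -0.90 while the macrophage median lies at 1.80. Of the 18 endothelial points, 7 are genes under 1 TPM in every TREM2- library, which passed the filter through TREM2+ alone.

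Ly6a (ENSMUSG00000075602.10, chromosome 15, 74994877 to 74998031, minus strand) encodes Sca-1. Its level was 1114, 531 and 989.6 TPM in the TREM2+ libraries, against 484, 360.5 and 272 TPM in the TREM2- libraries. All TREM2+ libraries lay above all TREM2- libraries, with TREM2+ replicate 2 closest to them. Means were 878 ± 307 TPM in TREM2+ and 372 ± 106 TPM in TREM2- (SD, n = 3 each). For Ly6a the log2 fold change was 1.21 ± 0.34, with an adjusted p of 0.128 in limma, and Ly6a did not pass the threshold. It passed without TREM2+ replicate 2 (1.53, adjusted p = 0.0415) and in none of the other 5 fits on 5 libraries, where adjusted p lay between 0.113 and 0.364. It also passed when libraries were weighted by their fit (1.35, adjusted p = 0.024).

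Ly6i, a neighbour of Ly6a that is known from monocytes and macrophages of the mouse, was less clear. It stood at 286, 155 and 266 TPM in TREM2+ and at 237, 103 and 80.5 TPM in TREM2-. The groups overlapped, since TREM2- replicate 1 lay above TREM2+ replicate 2, and in each group 1 library stood apart from the other 2. The log2 fold change was 0.85 ± 0.41 (adjusted p = 0.454, limma), and of the settings run it passed in 1, with library weights (1.19, adjusted p = 0.0358). The ratio of Ly6i to Ly6a was 0.257, 0.292 and 0.269 in TREM2+ and 0.490, 0.286 and 0.296 in TREM2-, so it was alike in 5 libraries and higher in TREM2- replicate 1.

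In the balance between Ly6a and Ly6c2 the TREM2+ and TREM2- libraries did not overlap. Ly6a had 6.12, 3.12 and 8.57 times the TPM of Ly6c2 in TREM2+, and 0.676, 0.722 and 0.826 times in TREM2-. A two-sided exact permutation test over libraries gave p = 0.1, the smallest that 3 against 3 libraries allow. The ratio of Ly6a to Ly6a2 was 9.89, 3.60 and 13.7 in TREM2+ and 0.840, 0.573 and 0.802 in TREM2-. By TPM, Ly6a thus stood above either gene in each TREM2+ library and below both in each TREM2- library. This order depends on the exon lengths used, 1205 bases for Ly6a and 798 for Ly6a2. In TREM2- replicates 1, 2 and 3, Ly6a had 5199, 3239 and 2110 reads and Ly6a2 had 4099, 3743 and 1743. As a share of the summed TPM of the 9 genes, Ly6a took 37.9%, 21.8% and 40.2% in TREM2+ and 12.3%, 12.1% and 11.3% in TREM2-. Ly6c2 took 6.19%, 6.98% and 4.69% in TREM2+ and 18.1%, 16.7% and 13.7% in TREM2-, and Ly6a2 took 3.83%, 6.04% and 2.94% in TREM2+ and 14.6%, 21.1% and 14.1% in TREM2-. For the total no difference passed the test: the 9 genes summed to 2942, 2443 and 2464 TPM in TREM2+ and 3951, 2986 and 2409 TPM in TREM2-, with overlap. That sum had a log2 fold change of -0.23 ± 0.26 (adjusted p = 0.816, limma).

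**Figure D3:**
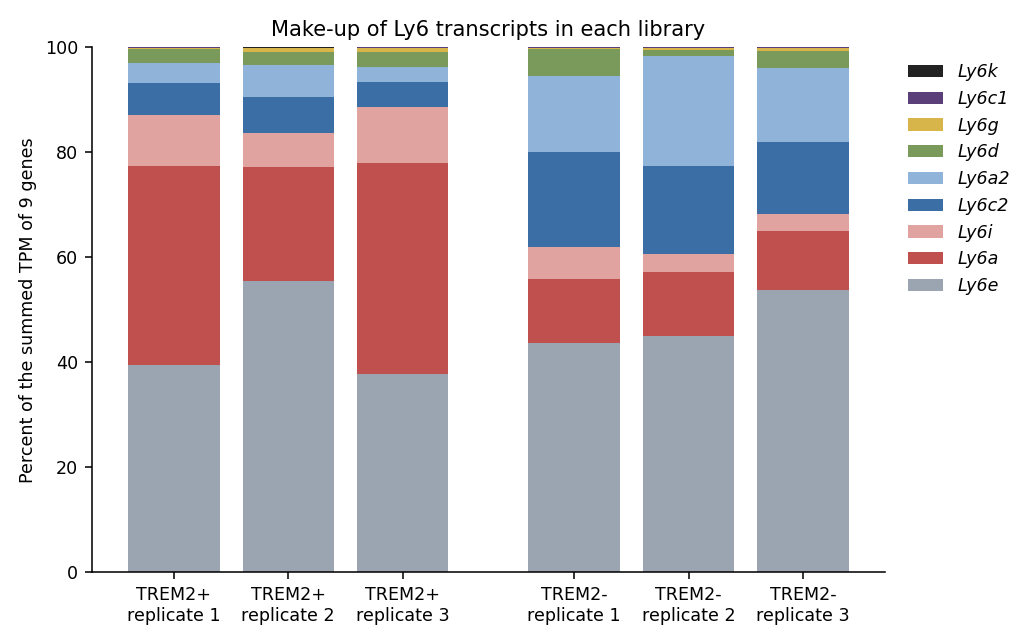
Share of the summed TPM of the 9 genes taken by each (vertical axis, percent, stacked) in the 3 TREM2+ libraries (left) and the 3 TREM2- libraries (right). Ly6a takes between 21.8% and 40.2% in TREM2+ and between 11.3% and 12.3% in TREM2-, while Ly6c2 and Ly6a2 take the smaller shares in TREM2+.

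Interferon-response and endothelial genes were read beside Ly6a, which interferons induce in many cells and which mouse endothelium also expresses. Of 25 type I interferon response genes, 0 passed in either direction with limma (median 0.09), an unadjusted p under 0.05 was reached by 3 above and 0 below, and voom called 2 higher. Rsad2, the antiviral enzyme viperin, was at 50.6, 29.96 and 44.3 TPM in TREM2+ and 23.6, 15.5 and 11.04 TPM in TREM2- (1.30 ± 0.31, adjusted p = 0.0794). Of 24 interferon-gamma response genes, 3 were higher and 0 lower (median 0.38), namely the chemokine Cxcl9, the checkpoint ligand Cd274 and the nitric oxide synthase Nos2. An unadjusted p under 0.05 was reached by 5 above and 0 below, and voom called 2 higher and 0 lower. Log2 fold changes were above 0 for 22 of the 24 and below 0 for 2. Cxcl9 was at 130.2, 81.1 and 129.9 TPM in TREM2+ and 45.8, 26.6 and 23.8 TPM in TREM2- (1.82 ± 0.31, adjusted p = 0.0194). Of 6 fits on 5 libraries each, Cxcl9 was called in 4, Nos2 in 3 and Cd274 in 2, and none was called without TREM2+ replicate 3 or without TREM2- replicate 3. The interferon-gamma list summed to 3997, 1988 and 4170 TPM in TREM2+ and 3017, 2863 and 1434 TPM in TREM2-, with overlap. TREM2+ replicate 2 was the lowest TREM2+ library in it, as in Ly6a and Ly6i. It was so too in the sums of the endothelial list (351, 243 and 286 TPM in TREM2+) and the type I interferon list. The latter summed to 1895, 1298 and 1756 TPM in TREM2+ and 1881, 1278 and 864 TPM in TREM2-. Of 18 endothelial genes tested, 7 were under 1 TPM in every TREM2- library and so passed the filter through TREM2+ alone, and the 6 calls among them are read as no support. Of the other 11, which reached 1 TPM in at least 1 TREM2- library, 8 were higher in TREM2+ and 0 lower. These 8 held their call whichever library was left out. A gene at 1 TPM in only some TREM2- libraries can still have met the filter through TREM2+. Such genes were not set apart among the 8, so their number is given as a description. The summed level of the 18 was between 243 and 351 TPM in TREM2+ and between 26.2 and 48.8 TPM in TREM2-, and none was at 0 in all 6 libraries. Clec4g, a lectin of liver sinusoidal endothelium, was at 189, 124 and 166 TPM in TREM2+ and 19.1, 13.02 and 7.39 TPM in TREM2-. The part of interferon response and of endothelial RNA in the level of Ly6a was not tested.

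**Figure D4:**
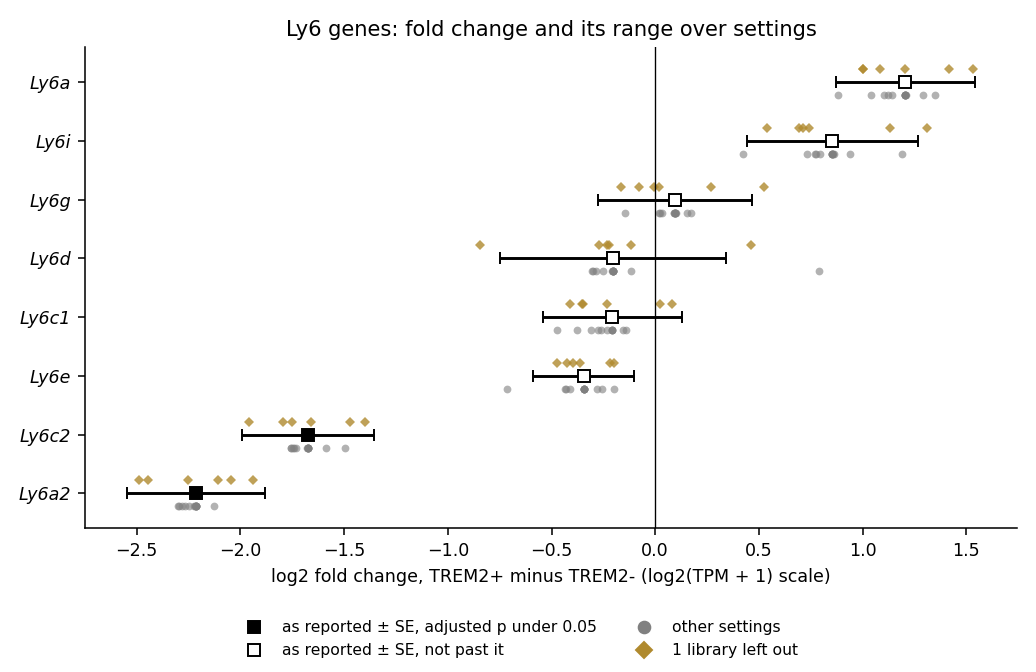
Log2 fold change (TREM2+ minus TREM2-, horizontal axis) of the 8 genes tested, as squares with their SE, filled where the adjusted p in limma is under 0.05. Grey points below each square are other settings and brown diamonds above it are fits with 1 library left out. Ly6c2 and Ly6a2 stay below 0 and Ly6a and Ly6i above 0 in all of them, while Ly6g, Ly6d and Ly6c1 have values on both sides.

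Ly6e, an interferon-inducible protein that in the mouse also serves as the receptor of the placental fusion protein syncytin-A, was the most abundant of the 9. It stood at 1163, 1356 and 929.7 TPM in TREM2+ and at 1726, 1346 and 1294 TPM in TREM2-. The groups overlapped in that TREM2+ replicate 2 lay above TREM2- replicates 2 and 3. Means were 1150 ± 214 TPM in TREM2+ and 1455 ± 236 TPM in TREM2- (SD, n = 3 each), and the log2 fold change was -0.34 ± 0.24 (adjusted p = 0.676, limma). It took between 37.7% and 55.5% of the summed TPM of the 9 genes in TREM2+ and between 43.7% and 53.7% in TREM2-.

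Ly6d, which is known from B lineage cells and from keratinocytes, had the largest SE of the 8 genes tested. It was at 74.1, 59.6 and 69.1 TPM in TREM2+ and at 198, 31.4 and 74.8 TPM in TREM2-, so the highest and the lowest library were both TREM2-. The log2 fold change was -0.20 ± 0.54 (adjusted p = 0.935, limma), and it turned to 0.46 without TREM2- replicate 1. Cd79b, a chain of the B cell receptor, was likewise highest in TREM2- replicate 1 and lowest in TREM2- replicate 2, at 67.2, 57.7 and 57.8 TPM in TREM2+ and 154, 31.1 and 65.6 TPM in TREM2-. Of 11 B cell and plasma cell genes tested, 0 were called by limma in either direction, 0 had an unadjusted p under 0.05 and voom called 0. All 13 of the list summed to between 633 and 904 TPM in TREM2+ and between 782 and 1219 TPM in TREM2-. Of 12 keratinocyte and squamous epithelial genes, 2 passed the filter and 0 were called, while Krt5 and Krt14 were under 0.1 TPM in every library. All 12 summed to 124.6, 71.1 and 76.6 TPM in TREM2+ and 71.9, 194 and 67.2 TPM in TREM2-, with overlap. None of the 12 was at 0 in all 6 libraries. The part of B cell RNA and of keratinocyte or squamous epithelial RNA in the level of Ly6d was not tested. The 9 plasmacytoid dendritic cell genes tested, whose precursors can carry Ly6d, gave 0 calls in either direction with limma and with voom, and 1 lower at an unadjusted p under 0.05.

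Ly6g, the neutrophil marker that antibodies to Gr-1 bind together with Ly6C, was low. It stood at 6.89, 19.5 and 17.2 TPM in TREM2+ and at 11.1, 10.7 and 16.2 TPM in TREM2-, and the lowest and the highest library were both TREM2+. Its log2 fold change was 0.09 ± 0.37 (adjusted p = 0.955, limma), and it lay between -0.16 and 0.52 when 1 library was left out. The summed level of 18 neutrophil genes was between 16950 and 20970 TPM in TREM2+ and between 21170 and 24140 TPM in TREM2-, and none was at 0 in all 6 libraries. Of the 18, 1 was lower and 0 were higher (median -0.86), 8 lower and 3 higher ones had an unadjusted p under 0.05, and voom called 3 lower. In 6 of the 18, the TREM2+ libraries all lay below the TREM2- libraries, and in 3 all above. Camp, the antimicrobial peptide of neutrophil granules, was the one called (-1.78, adjusted p = 0.0308), and on 5 libraries it was called in 2 fits of 6, those without replicate 2 of either group. Neutrophil calls in either direction then numbered 5 without TREM2+ replicate 2 and 6 without TREM2- replicate 2. Stfa2l1, which was higher in TREM2+, was among the calls in both fits. Ngp, another granule protein gene, had -1.74 (adjusted p = 0.0532), and Stfa2l1 of the stefin A group had 1.42 (adjusted p = 0.0637). The part of neutrophil RNA in the level of Ly6g was not tested.

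Ly6k, which in the mouse is needed for sperm function, was at the floor. It had 1, 7 and 3 reads in TREM2+ and 3, 2 and 0 reads in TREM2-, or 0.16, 1.18 and 0.56 TPM in TREM2+ and 0.41, 0.32 and 0 TPM in TREM2-. A count of 0 in TREM2- replicate 3 allows a level of up to 0.562 TPM, for counting error only. Of its stretches of 150 bases, 10.15% occur in the antisense gene Gm17189, and since the labels name no strand setting, reads from that shared stretch cannot be told apart.

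Along the chromosome, the 2 lower genes were neighbours. Start sites of Ly6c2 and Ly6a2 lay 157 and 180 kb from that of Ly6e, and those of Ly6i and Ly6a lay 28.4 and 43.0 kb from it. Ly6c1, at 93.8 kb, and Ly6g, at 200.2 kb, lay on either side of the lower pair and had log2 fold changes of -0.21 and 0.09. In a window reaching 250 kb beyond the outermost members there were 47 genes, of which 15 passed the filter: 8 members and 7 other genes. Of those 7, 0 were called by limma and 0 had an unadjusted p under 0.05. They were the pseudogenes Gm6610, Gm29126, Gm8000, Gm28069 and Gm5960, the long noncoding RNA gene Gm39556 and Gm37042, with log2 fold changes between -0.99 and 0.65.

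**Figure D5:**
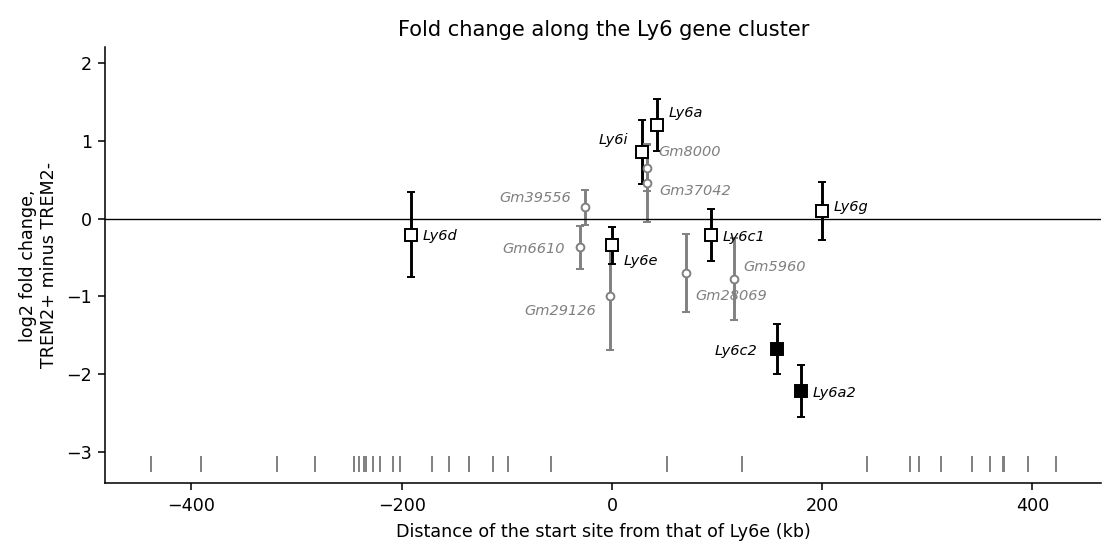
Log2 fold change ± SE (TREM2+ minus TREM2-, vertical axis) against the distance of each start site from that of Ly6e in kb (horizontal axis), for members (squares) and other tested genes (grey circles) of the window. Filled squares have an adjusted p under 0.05, and ticks at the bottom are genes below the filter, Ly6k among them; Ly6c2 and Ly6a2 lie side by side at -1.67 and -2.21, with Ly6c1 at -0.21 and Ly6g at 0.09 on either side.

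Other genes of the Ly6/uPAR family that passed the test were higher in TREM2+. Of 37 such genes, 36 were in the table, 4 were at 0 in all 6 libraries and 7 passed the filter. Of these 7, 3 were higher in TREM2+ and 0 lower. An unadjusted p under 0.05 was reached by 3 above and 1 below, and voom called 3 higher. Gpihbp1, which holds lipoprotein lipase on capillary endothelium, was at 82.8, 60.9 and 49.2 TPM in TREM2+ and 4.96, 11.4 and 3.23 TPM in TREM2- (3.23 ± 0.39, adjusted p = 0.00573). Cd59a, which shields cells from the membrane attack complex of complement, was at 29.3, 19.1 and 22.6 TPM in TREM2+ and 4.46, 5.85 and 4.29 TPM in TREM2- (2.06 ± 0.24, adjusted p = 0.00569). Ly6g6e, a family gene of the major histocompatibility complex region, was at 4.18, 4.63 and 4.28 TPM in TREM2+ and 0.353, 0.527 and 1.1 TPM in TREM2- (1.72 ± 0.26, adjusted p = 0.0124). In all 3 genes the groups did not overlap, and all kept their call whichever library was left out. Ly6g6e reached 1 TPM in TREM2- replicate 3 only, so it met the filter through its TREM2+ libraries, and its call is read as no support. Because Gpihbp1 is an endothelial gene, the endothelial list given above stands beside it too, and its part was not tested. The 4 that did not pass were Plaur, the urokinase receptor (0.60), the neutrophil gene Cd177 (-1.28), Ly6l (-0.31) and Ly6g6c (-0.22). Genes that build and attach the GPI anchor gave 0 calls of 27 in either direction with limma (median -0.26), 1 lower at an unadjusted p under 0.05 and 1 lower with voom. Pigv, a mannosyltransferase of that pathway, was at 7.20, 8.19 and 6.30 TPM in TREM2+ and 14.7, 10.4 and 10.9 TPM in TREM2- (-0.65 ± 0.23, adjusted p = 0.254). T cell and NK cell genes, read because T cells also carry Ly6 proteins, gave 0 calls of 16 with limma (median -0.82), 6 lower at an unadjusted p under 0.05 and 1 lower with voom. They summed to between 1580 and 1730 TPM in TREM2+ and between 2314 and 5685 TPM in TREM2-, none at 0 in all 6. In 8 of the 16, the TREM2+ libraries all lay below the TREM2- libraries, and in 0 all above. For the 18 classical monocyte genes these counts were 9 and 0. The part of T cell and NK cell RNA in the levels of the Ly6 genes was not tested.

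Genes with the nearest profile were sought for the 3 most abundant members, by the Euclidean distance between log2(TPM + 1) values, each gene centred on its mean over the 6 libraries. Among 5859 genes with a mean of at least 10 TPM, those nearest to Ly6a were the hexokinase gene Hk3 (0.332), Rsad2 (0.333), Ehd1 (0.396), Ninj1 (0.422) and Gm37560 (0.450). Its neighbour Ly6i came 51st, at 0.756. Nearest to Ly6c2 were Arhgef37 (0.524), Smim5 (0.593), Mfsd7a (0.689), Ndufaf7 (0.698) and the immunoglobulin segment Igkv6-15 (0.736). Ly6a2 came 22nd for Ly6c2, at 0.892, while Ly6c2 came 5th for Ly6a2, which was looked up after the values were seen. Nearest to Ly6e were Myg1 (0.074), Nfs1 (0.096), Dnal4 (0.097), Zfp809 (0.111) and Csnk1e (0.114), genes of much lower level whose libraries differed as little as those of Ly6e. For Ly6d, likewise looked up after its values were seen, the nearest gene was Cd79b (0.289). With 6 libraries in 2 groups, likeness of profiles is a description.

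Trem2 itself, read as a check of the labels, was at 39.6, 40.8 and 30.7 TPM in TREM2+ and 16.9, 20.5 and 21.2 TPM in TREM2-, without overlap. Its transcripts were thus present in every TREM2- library, and the difference did not pass the test (0.89 ± 0.22, adjusted p = 0.0855, limma). Recovered depth was between 12590404 and 17233305 reads in TREM2+ and between 11545983 and 20034255 reads in TREM2-. Transcripts of a repeat family of 12 genes took between 0.704% and 17.5% of TPM in TREM2+ and between 0.427% and 24.6% in TREM2-, highest in replicate 3 of each group, so the libraries differ in composition within groups. The 9 Ly6 genes together took 0.294%, 0.244% and 0.246% of TPM in TREM2+ and 0.395%, 0.299% and 0.241% in TREM2-.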

How the data were processed

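Polyadenylated RNA of 3 TREM2+ and 3 TREM2- samples was sequenced as read pairs of 150 bases, per the labels' protocols. The submitters' processing notes name STAR 2.7.10a, Subread, featureCounts 2.0.3 and mm10. Annotation release, strand setting and formula: not given in the sources used here. Deposited values are called TPM by the authors, but the 6 columns sum to 1000000 together, so they were read as a length-scaled signal, and each library was rescaled here to 1000000. Multiplying the signal by GENCODE M21 exon lengths gave whole reads, within 0.01 read, for 98.7% of 36996 matched rows above 0. These reads, 11545983 to 20034255 a library, served for precision, for the read counts and shares given, and for voom. They also served for the filter on mean reads and for the simulated data, and not for the main fit.

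Genes at 1 TPM or more in 3 or more libraries entered limma 3.58.1 (R 4.3.3), which was run two-sided on log2(TPM + 1) with its trend option after a test on simulated data. This scale understates changes of low genes. Errors are SE for log2 fold changes and SD for TPM.

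The members and lists were chosen with earlier results of these data known. The text names the 9 members, Trem2, other family genes that were called, up to 3 genes of each list by smallest p, tested genes within 250 kb, and the 5 genes nearest in profile to Ly6e, Ly6a and Ly6c2; Cd79b, Adgre1, Csf1r, Thbs1, Cd14, Krt5, Krt14 and the family genes that did not pass were added after their values were seen, and 1 gene is not reported here. Alternatives covered the pseudocount (0.1, 0.5), the filter, the scaling, the trend, library weights, voom, a repeat family, a replicate block and libraries left out.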

Additional observations from a re-analysis of the deposited data

How the results depend on the processing

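Ly6c2, Ly6a2, Ly6a, Ly6i and Ly6e and the sums kept their direction in every setting run. The lower calls of Ly6c2 and Ly6a2 were lost with no filter on low values (adjusted p = 0.151 and 0.074) and with both libraries numbered 3 left out (0.145 and 0.121), so 0 members were then lower. The sum of Ly6c1 and Ly6c2 lost its call in the same settings, at log2 fold changes of -1.65 and -1.74. Without 1 library, members called lower numbered 0 to 2 and higher 0 to 1, and that sum lay between -1.94 and -1.38. Library weights called 2 members higher. Signs turned for Ly6d (0.79) and Ly6g (-0.15) with library weights. With 1 library left out they turned for Ly6d (-0.84 to 0.46), Ly6g (-0.16 to 0.52) and Ly6c1 (-0.41 to 0.082). The cause was not tested. Over all genes 282 were called higher and 51 lower. Higher and lower calls were 95 and 3 with no filter, 456 higher at a mean of at least 10 reads, 170 and 86 on deposited values, 976 and 389 with library weights, 448 and 173 with voom, and 0 and 0 without both libraries numbered 3. Lower calls were 31 at a pseudocount of 0.1, 80 with median-of-ratios scaling, 121 with quantile normalization and 101 (beside 284 higher) without the repeat family. Without 1 library, higher calls ranged between 116 and 342 and lower calls between 7 and 105. Whether same-numbered samples pair was not settled. Their correlations of deviations were 0.188, -0.033 and 0.224, and those of other pairs lay between -0.376 and 0.131. The SE of Ly6c2 fell from 0.32 to 0.17 in a fit with a replicate block, and that of Ly6a2 from 0.33 to 0.14. That of Ly6c1 rose from 0.34 to 0.38. With a replicate block 116 genes were higher and 10 lower, and Ly6c2 and Ly6a2 were still called (adjusted p = 0.0407 and 0.0242). edgeR and DESeq2 were not run, because the counts behind the signal are recovered here and did not pass the unit check for a count model. Ly6c1 has no value at a filter of 5 TPM or on deposited values. At these depths genes such as Ly6k, with few reads, cannot be compared.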
